A study of Homo sapiens with 2 samples.

Results

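The expression of 36 imprinted genes in 16 imprinted domains was examined in A1847 cells with and without the arginine methyltransferase CARM1. The genes were taken from a list of known imprinted loci and matched by Ensembl identifier, and all 36 were found among the 57736 genes of the count table. A1847 is a human epithelial ovarian cancer cell line. RNA-Seq was carried out on 1 library of CARM1 wild type parental cells and 1 library of CARM1 knockout (CARM1 KO) cells, grown in the same RPMI medium with serum. The knockout was a clone made with a lentiviral CRISPR vector and a single guide RNA against CARM1, so the effect of the knockout and the history of the clone cannot be told apart. The labels name no vector control for the parental cells.

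An imprinted gene is transcribed mainly from the copy inherited from one parent. The choice is set in the germ line by DNA methylation of a control region and is kept through cell division, and 1 control region usually governs a cluster of neighbouring genes. Many imprinted genes act in fetal and placental growth, and loss or gain of imprinting is common in tumours. Polycomb and DNA methylation both take part in silencing the inactive copies. Which parental copy was read could not be seen here, because the table holds 1 count per gene for both copies together.

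The values are estimated read counts per gene, out of 30741953 for the parental and 32300391 for the CARM1 KO library. A fold change is the ratio of the counts after TMM scaling, with an exact 95% binomial interval that covers counting error only. With 1 library per group there was no replicate check and no p-value is given. Genes whose reads in the libraries summed to at least 10 were called higher or lower when the whole interval lay beyond 3-fold. Where one library had 0 reads, the fold is a bound set against 3 reads there. Fewer cells that express a gene and less RNA per cell cannot be told apart in such bulk libraries. Levels of different genes are compared as RPKM, the reads scaled for annotated exon length and library size. That length covers the exons of all annotated transcripts of a gene, so RPKM can be too low for genes with many transcripts. CARM1 itself had 975 parental and 380 CARM1 KO reads, 2.65-fold lower (95% interval 2.35 to 2.99) and not called. The authors checked the knockout at the protein level by immunoblot, which read counts do not show.

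The promoters of 4 members are shown because they set a called gene beside an uncalled neighbour and cover both directions of change. Each is the 250 bases before a RefSeq transcript start, 5′ to 3′, taken from the RefSeq table of GRCh38.p14 and placed in GRCh37 by an exact match. Capitals mark CG dinucleotides, the sites that DNA methylation uses. MKRN3 (chr15:23810571-23810820, plus strand) and NDN (chr15:23932453-23932702, minus strand) are neighbours in one domain. MEST (chr7:130131676-130131925, plus strand) and ZDBF2 (chr2:207139137-207139386, plus strand) stand for a strongly lower and a higher gene.
MKRN3: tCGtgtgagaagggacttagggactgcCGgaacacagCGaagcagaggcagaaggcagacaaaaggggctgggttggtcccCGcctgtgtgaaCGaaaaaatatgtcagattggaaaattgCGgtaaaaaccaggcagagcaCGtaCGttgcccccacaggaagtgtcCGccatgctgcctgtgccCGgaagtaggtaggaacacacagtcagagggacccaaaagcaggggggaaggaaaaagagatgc
NDN: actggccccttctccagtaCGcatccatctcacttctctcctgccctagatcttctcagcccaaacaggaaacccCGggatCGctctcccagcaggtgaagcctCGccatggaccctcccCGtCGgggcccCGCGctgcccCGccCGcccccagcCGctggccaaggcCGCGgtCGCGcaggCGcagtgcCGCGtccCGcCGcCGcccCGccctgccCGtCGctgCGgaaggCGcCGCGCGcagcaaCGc
MEST: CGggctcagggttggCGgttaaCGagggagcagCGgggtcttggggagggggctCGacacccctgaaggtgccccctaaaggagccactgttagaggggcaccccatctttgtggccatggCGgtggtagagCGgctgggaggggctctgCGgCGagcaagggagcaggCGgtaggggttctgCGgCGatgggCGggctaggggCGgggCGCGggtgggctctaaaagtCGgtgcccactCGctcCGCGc
ZDBF2: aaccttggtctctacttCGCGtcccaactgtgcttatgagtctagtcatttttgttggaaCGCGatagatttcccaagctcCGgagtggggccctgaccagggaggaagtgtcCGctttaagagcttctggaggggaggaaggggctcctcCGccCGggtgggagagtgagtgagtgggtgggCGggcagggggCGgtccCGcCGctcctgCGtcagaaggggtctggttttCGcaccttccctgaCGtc

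The MKRN3 window holds 10 CG dinucleotides and the NDN window 30. Of all 35116 promoter windows in the RefSeq table, 52.2% hold at least as many as MKRN3 and 12.4% at least as many as NDN. The MEST window holds 20 (32.4% of windows hold at least as many) and the ZDBF2 window 15 (42.9% hold at least as many). Other starts of the same genes differ. The MEST windows hold from 9 to 20, and 1 further ZDBF2 window holds 42. Which of MEST and ZDBF2 has more CG dinucleotides thus depends on the window shown. A window was found for 23 members, 6 of them called. DNA methylation was not measured, so these windows are a description of the sequence only.

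The largest changes among the imprinted genes were toward lower levels in CARM1 KO cells. Of the 36 members, 31 had at least 1 read and 24 had at least 10 over both libraries. In CARM1 KO cells 6 members were called lower (H19, MKRN3, MEST, PPP1R9A, PEG10 and GRB10) and 1 was called higher (ZDBF2), while 17 were not called. Among all 18563 genes with at least 10 reads, 6.71% were called lower and 6.81% higher. The median log2 fold change of the 24 members was 0.09, beside -0.03 for all genes so filtered. Of the members normally read from the paternal copy, 12 of 21 had enough reads, with 3 called lower (PEG10, MEST and MKRN3), 1 called higher and a median log2 fold change of -0.11. Of those read from the maternal copy, 5 of 7 had enough reads, with H19 called lower and a median of 0.35. The other 8 members have a pattern that is variable, depends on tissue or transcript or, for COPG2, is uncertain. Among the 7 of these with enough reads PPP1R9A and GRB10 were called lower.

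**Figure D1:**
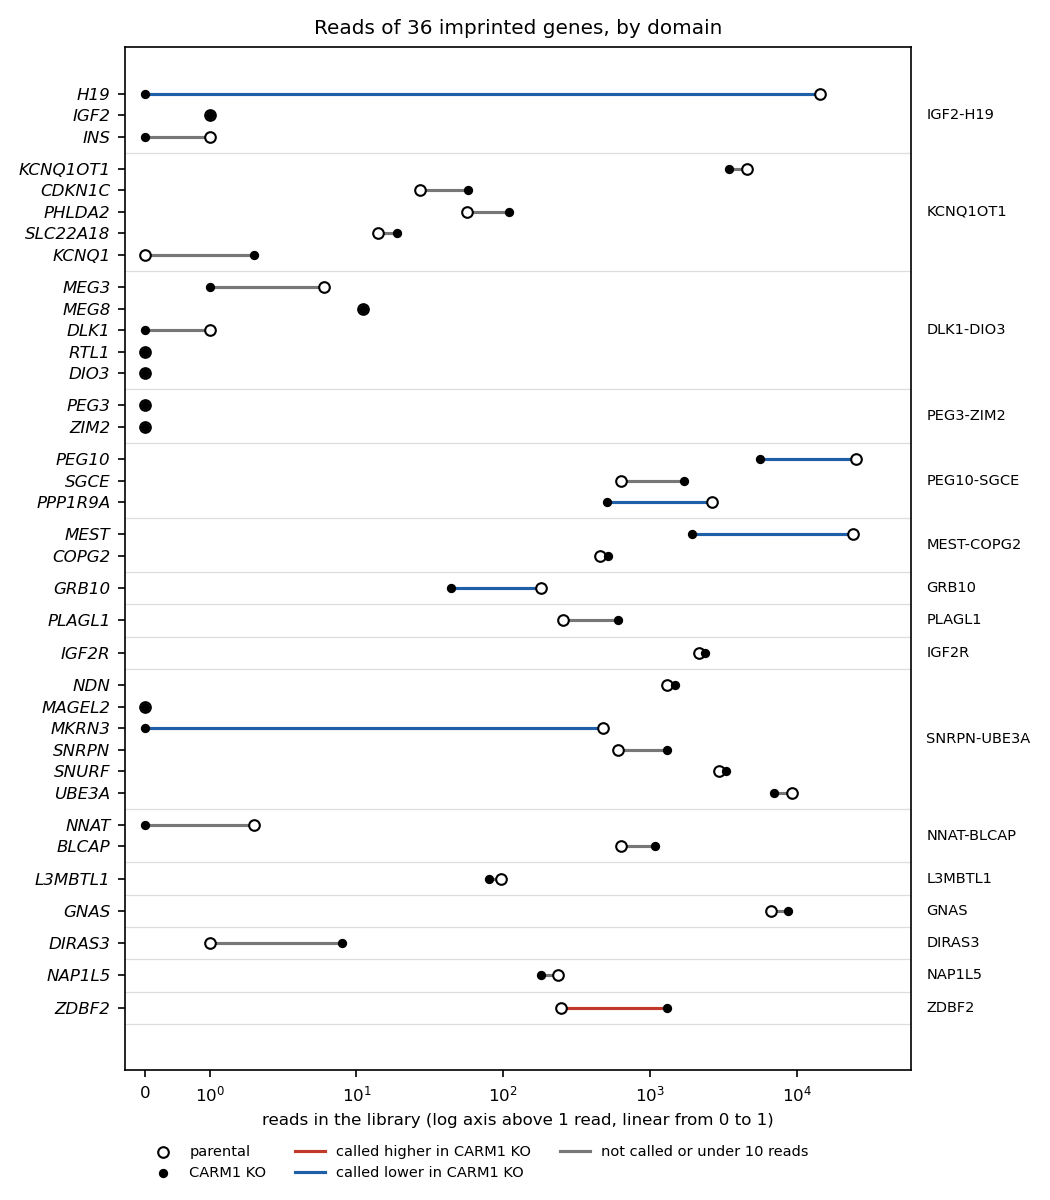
Reads of the 36 imprinted genes in the parental library (open circles) and the CARM1 KO library (filled circles), grouped by domain, with 1 library per group. The horizontal axis is the raw read count, on a log scale above 1 read and linear from 0 to 1. Blue lines mark the 6 genes called lower, the red line ZDBF2, and grey lines the genes that were not called or had under 10 reads.

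In parental cells 3 members stood above the rest. MEST had 24427 reads (165 RPKM), H19 had 14412 reads (134 RPKM) and PEG10 had 25234 reads (122 RPKM). The next member was SNURF at 61.5 RPKM. Together MEST, H19 and PEG10 held 65.6% of the 97720 reads of all members. In CARM1 KO cells they held 18.3% of 41452 reads, and their sum was 8.73-fold lower (95% interval 8.52 to 8.94). The 3 were picked by their parental level, so the choice itself favours a lower sum in CARM1 KO cells. The sum of the other 33 members was 33647 reads in the parental and 33870 in the CARM1 KO library, a scaled ratio of 1.03-fold lower (1.01 to 1.04). This sum mostly reflects the members with many reads. It includes MKRN3, PPP1R9A and GRB10, called lower, and ZDBF2, called higher. The order of the members by RPKM changed as well. In CARM1 KO cells SNURF was the highest by RPKM (65.7), followed by PEG10 (26.3), NDN (24.4) and MEST (12.7). This order depends on the annotated exon length. By reads GNAS was the highest in CARM1 KO cells, with 8701 over 22221 exon bases (12.2 RPKM), beside 3283 over 1560 for SNURF. Of the exon bases of SNURF 52.1% are shared on the same strand, so its level depends on how reads were divided.

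Markers of cell identity moved between the libraries as well. Of 8 epithelial ovarian markers with enough reads, 5 were called higher in CARM1 KO cells (KRT7, KRT8, PAX8, CDH1 and MSLN) and 1 lower (KRT19). Of all genes 6.81% were called higher and 6.71% lower. The summed level of the 10 markers listed went from 1419 to 4731 CPM (reads scaled by library size). MUC16 was at 0 and 1 reads and WT1 at 8 and 1. Of 5 fibroblast markers 4 were called lower (PDGFRA, THY1, LUM and DCN) and COL1A1 was called higher, and their sum went from 491 to 17.0 CPM, of which PDGFRA made up 462 in parental cells. The 5 blood markers summed to 0.355 and 0.50 CPM, with CD3E and HBB at 0, and no endothelial marker had 10 reads. These markers did not all move one way. H19, MEST and PEG10 were lower in the same comparison, and the part of the marker changes in this was not tested.

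**Figure D2:**
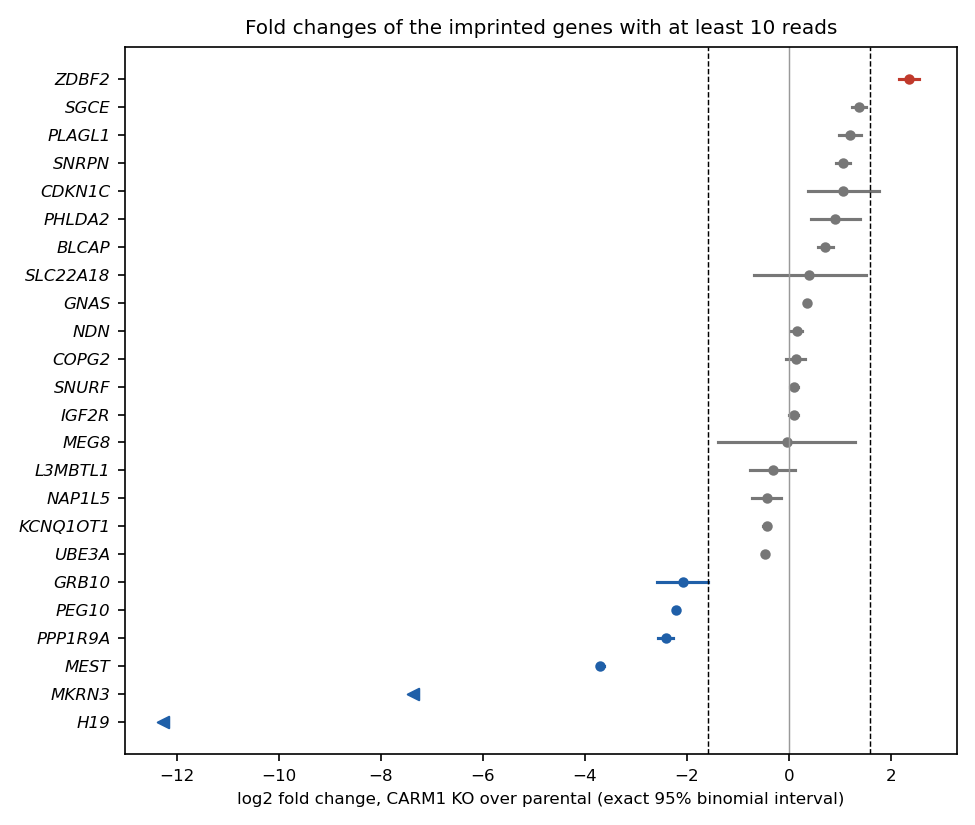
Fold change of the 24 imprinted genes with at least 10 reads, as log2 of CARM1 KO over parental after TMM scaling, with exact 95% intervals for counting error. Arrowheads are bounds for H19 and MKRN3, which had 0 reads in CARM1 KO cells, and dashed lines mark 3-fold. The intervals of 6 genes lie wholly on the lower side and that of ZDBF2 wholly on the higher side.

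In the IGF2-H19 domain H19 had no reads left in CARM1 KO cells. H19 is a long non-coding RNA read from the maternal copy, and lies at chr11:2016396-2025782 on the minus strand of GRCh37. Its count went from 14412 reads to 0, a level at least 4961-fold lower. IGF2, the fetal growth factor that is normally read from the paternal copy of the same domain, had 1 read in each library. INS, the insulin gene beside it, had 1 parental and 0 CARM1 KO reads. A change of IGF2 or INS was not detectable at this depth. The nearest expressed flanking gene on the H19 side was MRPL23, a mitochondrial ribosomal protein gene, with 735 parental and 590 CARM1 KO reads. On the other side TH, which encodes tyrosine hydroxylase and lies 2.71 kb from the domain, was called higher (17 to 144 reads, 8.20-fold, 95% interval 4.95 to 14.5).

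H19 is also the precursor of miR-675, whose mature arms are shown because they are the small RNA product of the transcript that was lost. Capitals mark the seed, bases 2 to 8, and the sequences are from RefSeq. The arms have different seeds. The miRNA itself was not matched in the count table and has no value here.
hsa-miR-675-5p: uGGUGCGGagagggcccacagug
hsa-miR-675-3p: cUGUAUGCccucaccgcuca

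The control region of this domain is known for sites of CTCF, an insulator protein that binds the unmethylated maternal copy. The word GGNGGCAG, part of the core of the CTCF motif, was searched on both strands of chr11:2016396-2027782, the annotated H19 span and the 2 kb upstream. It occurred 14 times in these 11387 bases. Of the 20175 windows of that length set at protein-coding genes, 97% held the word and 3.39% held it at least 14 times. Of these 14 matches, 6 on the minus strand had nearly the same flanks. They are shown with the word in capitals, because such repeats are a feature of the sequence that the read counts do not show.
chr11:2021194-2021213, with the same 20 bases at 2023439, 2023840 and 2024245: ggccgcgcGGCGGCAGtgca
chr11:2021600-2021619: ggctgcgcGGCGGCAGtgca
chr11:2022006-2022025: ggccgcgtGGCGGCAGtgca
A match of letters is not a bound site. CTCF had 2842 parental and 2809 CARM1 KO reads, a 1.04-fold lower level (95% interval 0.991 to 1.10). Its germ line paralog CTCFL, also called BORIS, was called higher, from 981 to 5747 reads (5.67-fold, 95% interval 5.30 to 6.08).

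In the adjacent KCNQ1OT1 domain no member was called. KCNQ1OT1, the paternal antisense RNA that silences the cluster in cis, had 4576 parental and 3489 CARM1 KO reads, a 1.35-fold lower level (95% interval 1.30 to 1.42). CDKN1C, the cyclin-dependent kinase inhibitor p57, had 27 and 58 reads, a ratio of 2.08 (1.30 to 3.42). PHLDA2, which limits placental growth, had 57 and 110 reads, a ratio of 1.87 (1.35 to 2.62). The transporter gene SLC22A18 had 14 and 19 reads, with an interval from 0.625 to 2.83 that includes no change. The potassium channel gene KCNQ1 had 0 and 2 reads. The intervals of CDKN1C and PHLDA2 lay above 1 and that of KCNQ1OT1 on the lower side, and each crossed or stayed within 3-fold.

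In the PEG10-SGCE domain on chromosome 7, PEG10 and PPP1R9A were called lower while SGCE was at a higher, uncalled level. PEG10, a retrotransposon-derived gene needed for the placenta, lies at chr7:94285637-94299007 on the plus strand. It had 25234 parental and 5641 CARM1 KO reads and was called lower (4.62-fold, 95% interval 4.49 to 4.76). SGCE encodes epsilon-sarcoglycan and is read from the same paternal copy, head to head with PEG10. SGCE had 639 parental and 1710 CARM1 KO reads, a 2.59-fold higher level (2.36 to 2.84) that was not called. PPP1R9A, which encodes the actin-binding protein neurabin, lies at chr7:94536514-94925727 on the plus strand. Its count was 2632 reads in the parental and 508 in the CARM1 KO library, and it was called lower (5.35-fold, 4.86 to 5.90). By RPKM, PEG10 was at 122 and 26.3, SGCE at 0.987 and 2.56, and PPP1R9A at 7.58 and 1.42. The calls of PEG10 and PPP1R9A were lost under edgeR's exact test at an assumed coefficient of variation of 0.4. PEG10 remained the higher of the head-to-head pair in both libraries. Flanking genes were called in both directions. COL1A2, a fibrillar collagen gene 93.0 kb from SGCE, was called lower (16732 to 3 reads, 5759.7-fold, 95% interval 1971 to 27932), and PDK4, a pyruvate dehydrogenase kinase gene, was called higher (5 to 80 reads).

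MEST, which encodes a hydrolase-fold protein of mesoderm and is read from the paternal copy, had the highest RPKM of the members in parental cells. It lies at chr7:130126012-130146306 on the plus strand. MEST had 24427 parental and 1941 CARM1 KO reads and was called lower (13.0-fold, 95% interval 12.4 to 13.6). COPG2, whose imprinting is uncertain, is a coatomer subunit gene that overlaps the end of MEST on the other strand. COPG2 had 457 and 516 reads, a ratio of 1.09 (0.962 to 1.24). The intervals of these overlapping neighbours were far apart. Of the exon bases of MEST, 27.6% are shared with genes on the other strand, and whether strand was used in the counting is not given in the sources used here. Of the 6 nearest expressed flanking genes, PODXL, which encodes podocalyxin, was called higher (1010 to 3838 reads) and 0 were called lower.

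In the SNRPN-UBE3A domain, the Prader-Willi and Angelman region, MKRN3 was called lower and the 4 other members with enough reads were not called. MKRN3, a ubiquitin ligase gene that restrains the onset of puberty, lies at chr15:23810821-23875222 on the plus strand. Its 482 parental reads became 0, a level at least 166-fold lower. Of its exon bases 25.2% are shared with an antisense gene, ENSG00000260978, which had 8 and 0 reads. NDN, which encodes necdin, a MAGE family protein read from the same paternal copy, had 1302 and 1490 reads, a ratio of 1.11 (95% interval 1.03 to 1.19). MAGEL2, the MAGE family gene between them, was listed at 0 reads in both libraries. Of its exon bases 52.9% are shared on the same strand with AC124309.1, which had 8 and 25 reads, so the 0 may depend on how reads were divided. SNURF, the upstream reading frame of the SNRPN transcript, had 2974 and 3283 reads, a ratio of 1.07 (1.02 to 1.12). SNRPN, a core splicing protein gene, had 611 and 1318 reads, a ratio of 2.09 (1.90 to 2.30). SNRPN and SNURF share exons, so the division of reads between them is uncertain, and their sum had a ratio of 1.24 (1.19 to 1.30). UBE3A, a ubiquitin ligase gene that is maternal in neurons, had 9380 and 6964 reads, a 1.39-fold lower level (1.35 to 1.43).

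The host transcript of the small nucleolar RNAs of this region, SNHG14, had 3176 parental and 4958 CARM1 KO reads, a ratio of 1.51 (95% interval 1.45 to 1.58). The SNORD116 copies processed from it were at lower levels. These copies are not members and were chosen after their values were seen. Of 25 copies matched, 19 had at least 10 reads, and each of the 19 was at a lower level in CARM1 KO cells, by 1.94-fold to 5.99-fold with a median of 2.93. Of the 19, 0 were called. The summed reads of the 25 copies were 1686 in parental and 665 in CARM1 KO cells. The copies are nearly identical, so single copies are uncertain. The RNA was cleaned on columns, and how well such short RNAs were kept in each library was not tested. The 44 SNORD115 copies had 4 parental and 2 CARM1 KO reads. On the UBE3A side, the receptor subunit gene GABRG3 was called higher (35 to 233 reads).

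ZDBF2 was the single member called higher under the 3-fold interval rule. It encodes a zinc finger protein, is read from the paternal copy and lies at chr2:207139387-207179151 on the plus strand. ZDBF2 had 248 parental and 1305 CARM1 KO reads, a 5.10-fold higher level (95% interval 4.45 to 5.86). Its level went from 0.734 to 3.74 RPKM, from rank 19 to rank 10 among the members. The call was lost under edgeR's exact test at an assumed coefficient of variation of 0.4. CMKLR2, a chemokine-like receptor gene formerly named GPR1 that is imprinted in the same domain, was also called higher, from 15 to 115 reads (7.42-fold, 4.32 to 13.7). MDH1B, a malate dehydrogenase gene on the flank, was called lower (94 to 17 reads).

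GRB10, an adaptor of the insulin and IGF receptors with tissue-dependent imprinting, lies at chr7:50657760-50861159 on the minus strand. GRB10 had 180 parental and 44 CARM1 KO reads and was called lower (4.22-fold, 95% interval 3.02 to 6.02). This call was lost under DESeq2 size factors, upper-quartile scaling, a minimum of 1 read and edgeR's exact test at a coefficient of variation of 0.4. PLAGL1, a zinc finger growth regulator, had 257 and 608 reads, a ratio of 2.29 (1.98 to 2.66). IGF2R, the receptor that clears IGF2, had 2170 and 2383 reads, a ratio of 1.06 (1.00 to 1.13). GNAS, the stimulatory G protein alpha subunit gene, had 6646 and 8701 reads, a ratio of 1.27 (1.23 to 1.31). BLCAP had 639 and 1081 reads, a ratio of 1.64 (1.48 to 1.81), while NNAT, the neuronal proteolipid gene inside it, had 2 and 0 reads. L3MBTL1, a chromatin-binding protein gene, had 97 and 80 reads, a 1.25-fold lower level with an interval from 0.922 to 1.71 that includes no change. NAP1L5, related to nucleosome assembly proteins, had 236 and 180 reads, a 1.35-fold lower level (1.11 to 1.65). DIRAS3, a Ras-related tumour suppressor gene of ovarian epithelium, had 1 and 8 reads, under the minimum.

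The DLK1-DIO3 and PEG3-ZIM2 domains were close to silent in both libraries. The Notch-related ligand gene DLK1 had 1 parental and 0 CARM1 KO reads. The maternal non-coding RNA MEG3 had 6 and 1 reads. MEG8, the non-coding RNA of the same maternal copy, had 11 reads in each library and a ratio whose interval ran from 0.406 to 2.63. The retrotransposon-derived gene RTL1, the thyroid hormone deiodinase gene DIO3 and the zinc finger genes PEG3 and ZIM2 had 0 reads in both. A count of 0 allows a level of up to 0.0967 CPM in parental and 0.0937 in CARM1 KO cells, so a change below these levels was not detectable. In all, 12 of the 36 members had under 10 reads.

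The genes around each domain are given for context. For each of the 16 domains the 3 nearest expressed protein-coding genes outside the imprinted lists were taken on each side, 93 different genes in all. Some lie far away, up to 4572 kb at GRB10, 2116 kb at MEST and 1532 kb at SNRPN-UBE3A, so they do not all describe the same segment. Of the 93 genes, 11 were called higher and 4 lower, and the median log2 fold change over the 96 placements was 0.19. Of all genes 6.81% were called higher and 6.71% lower. That share also covers non-coding genes and starts at 10 reads, while the flanking genes had at least 50. At IGF2-H19, MEST, GRB10 and SNRPN-UBE3A 0 of the 6 flanking genes of each domain were called lower, too few to be read against that background. The PEG10-SGCE domain also holds members called lower, and there COL1A2 was called lower together with PEG10 and PPP1R9A. The other genes called lower were FAM13A (2403 to 687 reads) and GPRIN3 (12660 to 30 reads) beside NAP1L5, and MDH1B beside ZDBF2. Others called higher were EGFR on the GRB10 flank, 4226 kb away, FUCA2 and STX11 on the PLAGL1 flanks, CTSZ beside GNAS, WLS beside DIRAS3 and HERC5 on the NAP1L5 flank. DNA copy number was not measured, and its part in these values was not tested.

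**Figure D3:**
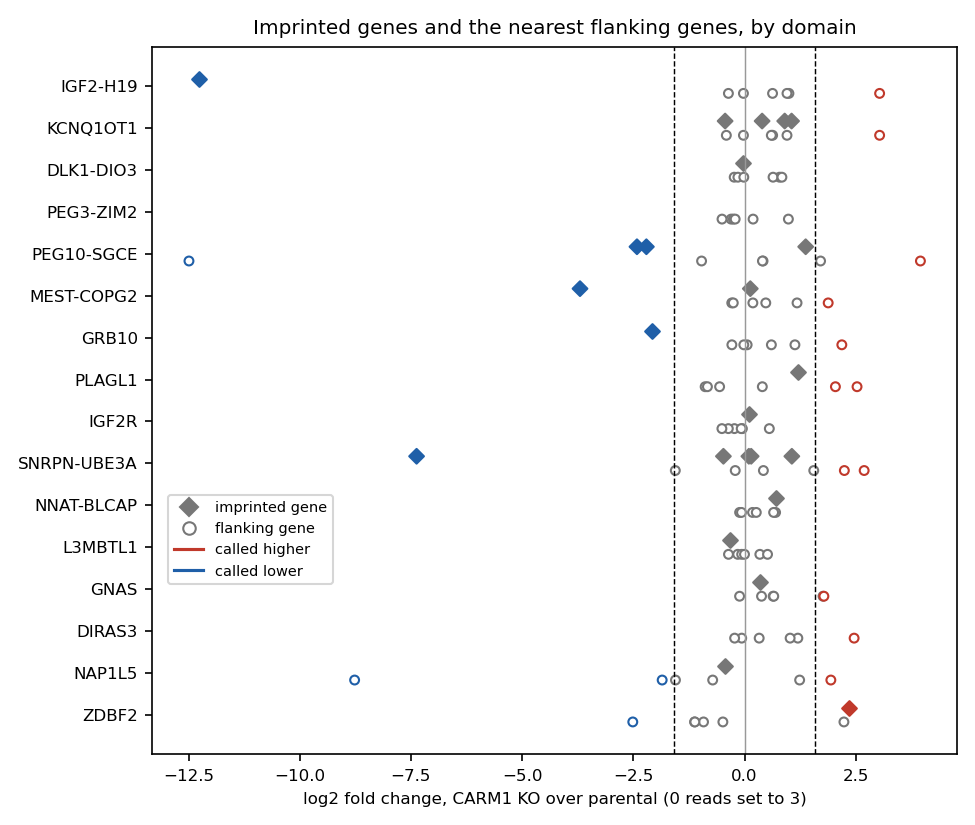
Log2 fold change of the imprinted genes with at least 10 reads (diamonds) and of the 6 nearest flanking genes of each domain (circles), CARM1 KO over parental, with 0 reads set to 3. Red and blue mark genes called higher and lower and dashed lines mark 3-fold. Blue diamonds lie beyond the lower 3-fold line in the IGF2-H19, PEG10-SGCE, MEST, GRB10 and SNRPN-UBE3A domains. Of the 93 different flanking genes (at least 50 reads) 4 were called lower, beside 6.71% of all genes with at least 10 reads. COL1A2 at PEG10-SGCE was among the 4.

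Proteins that keep or erase imprints were examined as a separate list. Of 22 symbols 21 were matched and 17 had at least 10 reads. Of the 17, 1 was called higher and 3 lower, beside 6.81% and 6.71% of all genes. Their median log2 fold change was -0.64, beside -0.03 for all genes. The gene called higher was CTCFL. TET1 and TET2 encode enzymes that oxidise methylated cytosine. TET1 had 1754 parental and 347 CARM1 KO reads (5.22-fold lower, 95% interval 4.65 to 5.87), and TET2 had 3656 and 963 reads (3.92-fold lower, 3.65 to 4.21). NLRP2, a maternal-effect gene of the oocyte, had 1076 and 4 reads (278-fold lower, 108 to 1021). The maintenance methyltransferase gene DNMT1 had 9373 and 12588 reads, a ratio of 1.30 (1.27 to 1.34). The de novo methyltransferase genes DNMT3A and DNMT3B were at 1.80-fold and 2.11-fold lower levels, within 3-fold. ZNF445 and TRIM28, which guard imprints through zinc finger recruitment, had a ratio of 1.54 (1.43 to 1.66) and a 1.52-fold lower level (1.45 to 1.59). Of the 4 PRC2 genes 0 were called, with a median of 0.80. The methyltransferase gene EZH2 had 3141 and 5380 reads, a ratio of 1.66 (1.59 to 1.73), beside 1.22 (1.16 to 1.29) for SUZ12. These are RNA values. By immunoblot the authors found EZH2 protein and its product H3K27Me3 not changed by the CARM1 knockout.

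Further imprinted transcripts were listed outside the 36. Of 44 symbols 35 were matched and 15 had at least 10 reads. Of the 15, 4 were called higher and 1 lower, beside 6.81% and 6.71% of all genes, and 10 were not called. Their median log2 fold change was -0.36. ATP10A, a phospholipid flippase gene beyond UBE3A, was called higher, from 46 to 1141 reads (24.0-fold, 95% interval 17.9 to 33.0). CPA4, a carboxypeptidase gene near MEST, was also called higher, from 37 to 350 reads (9.16-fold, 6.52 to 13.2), so genes of the MEST cluster went in opposite directions. The others called higher were FAM50B (49 to 245 reads) and CMKLR2. ZNF597, a zinc finger gene, was called lower, from 147 to 2 reads (75.9-fold, 20.6 to 633).

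IGF2 signalling is the pathway on which several imprinted genes act. Its ligand genes were near 0, with 1 IGF2 read in each library and 2 and 0 IGF1 reads. Of the 14 genes listed 12 had at least 10 reads. Of the 12, 2 were called higher and 1 lower, beside 6.81% and 6.71% of all genes. Their median log2 fold change was -0.22. IGFBP3, an extracellular IGF-binding protein gene, went from 1280 to 12315 reads (9.32-fold higher, 95% interval 8.79 to 9.88). The receptor substrate gene IRS2 went from 122 to 615 reads (4.88-fold higher, 4.01 to 5.98). IGF2BP3, a fetal RNA-binding protein gene, went from 2685 to 34 reads (81.6-fold lower, 58.2 to 118). The receptor genes IGF1R and INSR were at 1.83-fold and 2.08-fold lower levels and were not called.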

How the data were processed

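RNA-Seq libraries were made from total RNA of A1847 cells, 1 library of parental and 1 of CARM1 KO cells, and sequenced as paired ends. The authors aligned the reads to hg19 and deposited an estimated count per Ensembl gene from RSEM, in whole numbers and unnormalized. Reads shared by several genes are divided among them by RSEM. The Ensembl release and the use of strand are not given in the sources used here. The table held 0 columns of other samples.

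Of 57736 identifiers, 55501 were named from the GENCODE annotation lifted to GRCh37. The library totals, 30741953 and 32300391 reads, were scaled by TMM in edgeR 4.0.16 under R 4.3.3 (CARM1 KO over parental 1.033). Exact Clopper-Pearson intervals at 95% were computed in scipy 1.17.1. Medians used a prior count of 2, and with 0 to 3 reads set to 3 the median of the members was again 0.09. A quasi-likelihood fit in edgeR needs replicates and was not possible. On simulated counts with Poisson noise, 199 of 200 genes changed 8-fold were called among 18581, and 0 unchanged genes. This noise is what the intervals assume, so it checks the steps only and not the spread between cultures or clones.

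All members, called genes of the lists and called flanking genes (at least 50 reads) were named, except 1 that is not reported here. The members and lists were chosen with earlier results of these data known. Of the members, 25 share exon bases with another gene of the table. Alternatives were other scalings (including DESeq2 1.42.0 size factors), minimums of reads, call rules, prior counts and edgeR's exact test at assumed coefficients of variation. ChIP-Seq data were not analysed here.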

Additional observations from a re-analysis of the deposited data

How the results depend on the processing

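The rule for a call and the assumed spread both moved the counts. With a point estimate beyond 3-fold, 2357 genes were higher and 2183 lower. With the whole interval beyond 2-fold, 2305 were higher and 2125 lower, and 2 imprinted genes were higher, SGCE and ZDBF2. edgeR's exact test called 2204 higher and 1968 lower at an assumed coefficient of variation of 0.12. At 0.4 it called 532 higher and 894 lower, 0 imprinted genes higher and 3 lower (H19, MEST and MKRN3, without PEG10, PPP1R9A and GRB10). Without members whose exons overlap those of another gene, 3 imprinted genes were lower (GRB10, H19 and PPP1R9A). With a minimum of 1 read the median log2 fold change of the members was -0.011. GRB10 lost its call under DESeq2 size factors (-2.01 on the log2 scale, prior count 2), upper-quartile scaling (-1.99) and a minimum of 1 read, which left 5 members lower. The scalings differed little from one another, so calls that stayed under them say little about stability. No library could be left out, as each group had 1. No paired analysis was possible because each group had a single library. The spread between cultures and clones is unknown, and members under 10 reads could not be compared at this depth.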
